A study of Mus musculus with 6 samples.

Results

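The stretch-response and LIM proteins of striated muscle, 8 genes, were followed in the soleus of the mouse, a calf muscle used in posture that holds many slow fibres. They were Ankrd1, Ankrd2, Ankrd23, Csrp3, Fhl1, Xirp1, Xirp2 and Nrap, taken by gene name. All 8 members were found once each among the 43074 gene names of the deposited tables. The series held 3 libraries of soleus labelled mKO, the muscle knockout of Stard7, and 3 of soleus labelled WT. The design text calls the WT mice controls. The sources used here do not state age, sex, strain, the alleles or the Cre driver. Each group is said to hold 3 mice, but no label says which mouse gave which library, so the p-values cover the spread among these libraries, which may be technical in part.

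The members lie where a sarcomere senses load. Ankrd1, Ankrd2 and Ankrd23 are the muscle ankyrin repeat proteins, which bind the elastic part of titin in the I-band and can also enter the nucleus, and Ankrd1 is a well-known target of the YAP and TEAD factors that answer to stretch. Csrp3, the muscle LIM protein, and Fhl1, another protein built of LIM domains, sit at the Z-disc and the I-band and bind other proteins through these zinc-holding folds. Xirp1 and Xirp2, the Xin proteins, bind actin filaments, with filamin C as a partner of Xirp1, and Nrap links actin to the membrane at myotendinous junctions and takes part in myofibril assembly.

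The start regions of the ankyrin repeat genes are shown because Ankrd1 stood far below its paralogues in each library, as given further on. The sequences are RefSeq windows of build GRCm38.p6, an older build than the GRCm39 that the submitters' notes name. They cover 250 bases before a transcription start, 5′ to 3′ on the strand of the gene. Capitals mark the M-CAT motif, the letters CATTCC or their reverse complement GGAATG, which TEAD factors are known to bind. Ankrd1 has its window at chr19:36119845-36120094, minus strand, Ankrd2 at chr19:42035777-42036026, plus strand, and Ankrd23 a pair of windows at chr1:36535740-36535989 and chr1:36536557-36536806, minus strand.
Ankrd1: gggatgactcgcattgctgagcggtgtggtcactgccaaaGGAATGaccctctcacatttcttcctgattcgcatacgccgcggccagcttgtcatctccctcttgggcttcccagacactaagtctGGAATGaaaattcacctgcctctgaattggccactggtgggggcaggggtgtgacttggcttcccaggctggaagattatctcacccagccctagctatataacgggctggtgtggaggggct
Ankrd2: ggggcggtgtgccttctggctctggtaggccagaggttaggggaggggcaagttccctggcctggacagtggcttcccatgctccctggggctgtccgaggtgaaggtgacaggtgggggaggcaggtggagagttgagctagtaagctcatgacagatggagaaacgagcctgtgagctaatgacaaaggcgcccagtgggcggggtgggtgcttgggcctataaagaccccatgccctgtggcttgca
Ankrd23, start nearer the coding part: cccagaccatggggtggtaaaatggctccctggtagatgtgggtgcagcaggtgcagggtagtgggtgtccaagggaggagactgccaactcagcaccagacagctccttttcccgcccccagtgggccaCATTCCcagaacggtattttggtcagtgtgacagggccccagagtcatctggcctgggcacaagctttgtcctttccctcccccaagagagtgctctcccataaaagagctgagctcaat
Ankrd23, start farther upstream: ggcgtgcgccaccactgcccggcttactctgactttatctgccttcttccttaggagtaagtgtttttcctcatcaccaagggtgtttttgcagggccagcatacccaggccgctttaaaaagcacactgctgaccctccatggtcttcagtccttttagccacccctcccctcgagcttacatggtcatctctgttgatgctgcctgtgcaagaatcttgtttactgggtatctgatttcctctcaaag

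Ankrd1 carried 2 M-CAT motifs, whose far ends lay 210 and 123 bases before the start. Ankrd23 carried 1 in the window of its nearer start, and Ankrd2 carried none. Across all 32851 RefSeq windows of this length 12.6% held the motif on either strand. Windows were found for 7 members, 10 windows in all, and the motif was in those of Ankrd1 and Ankrd23 only. The TATA letters TATAAA were in the windows of Ankrd2 and Fhl1, against 12.4% of all windows. In Ankrd2 they lay 29 bases before the start, and in Fhl1 156 bases before it on the opposite strand. Other TATA forms were not searched. A CArG box, the site of the factor SRF, was in a window of Fhl1 (1.47% of all windows) and a MEF2 site in that of Xirp2 (0.508% of all windows). An E-box, CANNTG, was in 9 of the 10 windows, against 66.2% of all windows. The motifs were searched on both strands, no M-CAT motif overlapped another motif searched, and a match describes letters only.

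Between 42928382 and 51287715 reads a library were recovered from the deposited TPM (reads per exon length of a gene, scaled to a fixed sum per library). These sums cover only genes whose reads came out whole in all 6 libraries, and are not full library sizes. Both Myh7, the slow myosin heavy chain (3772 ± 767 TPM in mKO and 3158 ± 430 TPM in WT), and Myh2, that of oxidative fast fibres (4738 ± 806 TPM in mKO and 5967 ± 1092 TPM in WT, SD, n = 3 each), were abundant in this muscle. Myh1, another fast myosin heavy chain, averaged 277 ± 311 TPM in mKO and 3008 ± 461 TPM in WT. The mitochondrially encoded genes took 46.8% to 48.9% of TPM in mKO and 42.1% to 45.1% in WT. Because the sum is fixed, this leaves less for nuclear genes in mKO. The targeted gene Stard7 ran from 21.3 to 34.6 TPM in mKO and from 87.5 to 95.4 TPM in WT. It averaged 25.9 ± 7.50 TPM in mKO and 92.6 ± 4.41 TPM in WT (SD, n = 3 each), and limma put the log2 fold change at −1.83 with an SE of 0.16 (adjusted p = 0.00585), a call that did not hold when WT replicate 2 was left out (−1.81, adjusted p = 0.0703) or when low genes were kept. Genes that reached 1 TPM in 3 or more of the 6 libraries were tested, 12301 in all, and 64 were called at an adjusted p under 0.05, with 4 without WT replicate 2 and 94 without mKO replicate 3.

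None of the 8 members passed the test between mKO and WT. All 8 passed the filter, 0 were called by limma-trend on log2(TPM + 1) with Benjamini-Hochberg adjustment over all genes tested, and 0.520% of all genes were called. At an unadjusted p under 0.05 there was 1, Nrap, against 10.7% of all genes tested. The smallest adjusted p was 0.468. Limma-voom on recovered reads, which could test 6 members, called 0, had 0 at an unadjusted p under 0.05, and called 0.821% of the genes it tested. Of the members 5 had an estimate below 0 and 3 above, with a median of −0.06 beside −0.01 for all genes tested. With mitochondrially encoded genes left out these medians were 0.06 and 0.09, so with all 6 libraries the members' median was the lower on both scales. Without WT replicate 1 the order turned, at 0.02 for the members and −0.01 for all genes. The sizes were small apart from Ankrd1: the median absolute log2 fold change was 0.12, against 0.08 for all genes tested.

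**Figure D1:**
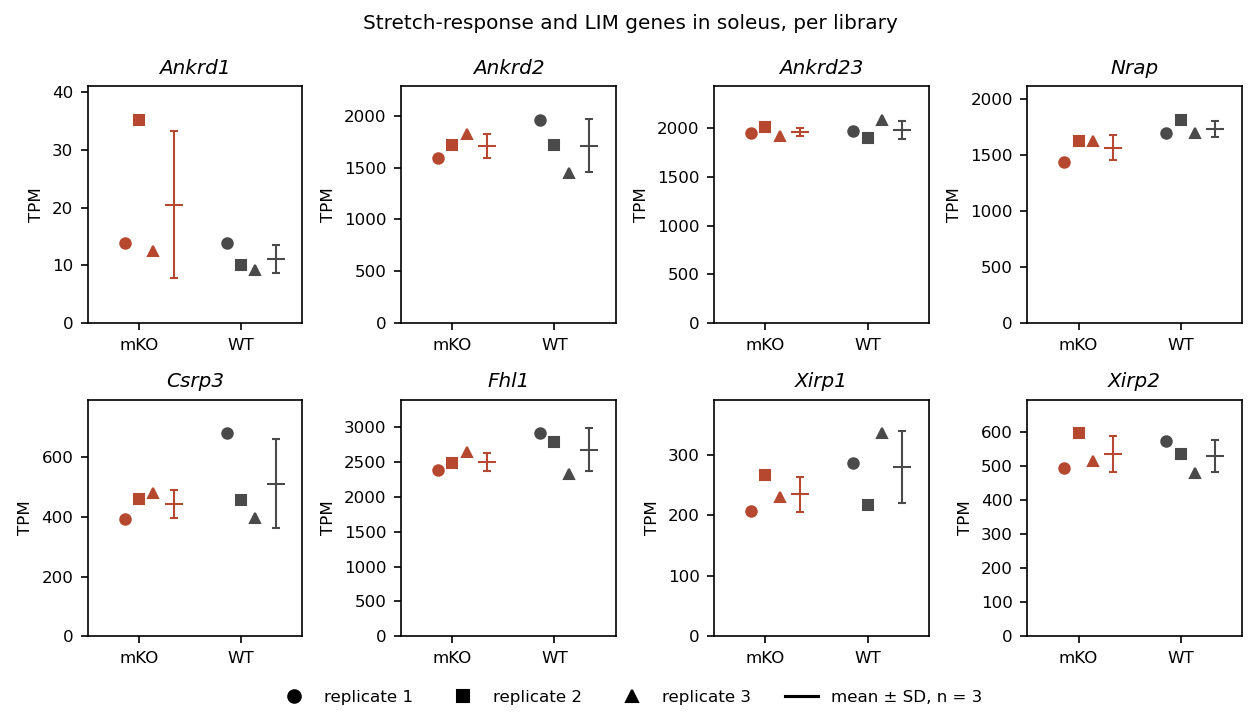
TPM of each member in the 3 mKO and 3 WT libraries, on a linear axis from 0, with a symbol for each replicate number and the mean and SD beside the points. Only Nrap has all mKO points below all WT points, and Ankrd1 has 1 mKO library, replicate 2 at 35.2 TPM, above the other 5.

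By level the members ran from Fhl1, at a mean of 2586 TPM over the 6 libraries, to Ankrd1, at 15.8 TPM. TPM is per length, so genes can be set side by side, but the lengths that recovered whole reads were those of all exons of a gene merged. A gene whose main transcript is shorter than that reads low. Whether close orders below depend on this was not tested. Fhl1 was above Ankrd23 in 6 of 6 libraries with no overlap of their ranges, and stood 39th of the 12301 genes tested. Ankrd23 (1971 TPM) was above Ankrd2 (1709 TPM) in 6 of 6 libraries although their ranges overlapped. Ankrd2 and Nrap (1647 TPM) did not differ beyond their spread, with Ankrd2 higher in 4 of 6 libraries. Xirp2 (534 TPM) and Csrp3 (477 TPM) overlapped too, with Xirp2 higher in 5 of 6 libraries. Xirp1 (257 TPM) lay below Csrp3 and above Ankrd1 in 6 of 6 libraries, with no overlap on either side.

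The summed level of the 8 members was 8455, 9183 and 9250 TPM in mKO replicates 1, 2 and 3, and 10079, 9441 and 8776 TPM in WT replicates 1, 2 and 3. That was 0.896% ± 0.0441 of all TPM in mKO and 0.943% ± 0.0651 in WT (SD, n = 3 each). Of the TPM of nuclear genes alone the share was 1.72% ± 0.0665 in mKO and 1.67% ± 0.0987 in WT. The order of the group means thus turned with the part of the RNA counted, and on both scales the groups overlapped.

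Ankrd1, the cardiac ankyrin repeat protein, low in healthy adult skeletal muscle, had the largest estimate among the 8 and rested on 1 library. Its values were 13.8, 35.2 and 12.5 TPM in mKO replicates 1, 2 and 3, and 13.9, 10.1 and 9.23 TPM in WT replicates 1, 2 and 3. Replicate 2 of mKO stood at 2.68 times the mean of the other mKO libraries, which fell within the WT range. The means were 20.5 ± 12.8 TPM in mKO and 11.1 ± 2.47 TPM in WT (SD, n = 3 each). By limma the log2 fold change, mKO minus WT, came to 0.70 with an SE of 0.35 and a 95% interval of −0.11 to 1.50 (adjusted p = 0.546). Without mKO replicate 2 it was 0.25 (adjusted p = 0.648), and the adjusted p ranged from 0.257 to 0.857 over the 16 other settings run.

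Counting error was small beside that gap. The reads behind Ankrd1 numbered 816, 2212 and 720 in mKO replicates 1, 2 and 3, and 926, 609 and 581 in WT replicates 1, 2 and 3. The exact Poisson 95% interval of mKO replicate 2 ran from 33.8 to 36.7 TPM, and that of the next highest library, WT replicate 1, from 13.0 to 14.8 TPM. These intervals cover counting error only, and no source used here says whether a read pair was counted once.

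Ankrd2, the ankyrin repeat protein typical of slow muscle, had nearly equal group means, 1709 ± 117 TPM in mKO and 1709 ± 257 TPM in WT (SD, n = 3 each). It stood at 1588, 1716 and 1822 TPM in mKO replicates 1, 2 and 3, and at 1961, 1720 and 1447 TPM in WT replicates 1, 2 and 3. The WT libraries enclosed all 3 mKO libraries. Its log2 fold change of 0.01 had an SE of 0.11 (limma, adjusted p = 0.991) and a 95% interval of 0.846 to 1.20 times WT.

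Ankrd23, the diabetes-related ankyrin repeat protein, was the steadiest member. It stood at 1948, 2008 and 1921 TPM in mKO replicates 1, 2 and 3, and at 1966, 1900 and 2085 TPM in WT replicates 1, 2 and 3. The coefficient of variation was 2.26% in mKO and 4.74% in WT. The estimate was −0.02 on the log2 scale with an SE of 0.05 (limma, adjusted p = 0.947), and a 95% interval of 0.907 to 1.08 times WT. A predicted gene, Gm42417, shares 2109 exon bases with Ankrd23 on the same strand in GENCODE M21, and it was listed at 2.32 to 6.06 TPM, so reads could have been split between them.

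Within the ankyrin repeat family Ankrd23 and Ankrd2 made up nearly all transcripts in both genotypes. Ankrd23 took 53.2% ± 1.88 of the family's TPM in mKO and 53.7% ± 4.64 in WT, and Ankrd2 took 46.3% ± 1.98 in mKO and 46.0% ± 4.60 in WT (SD, n = 3 each). Ankrd1 took 0.553% ± 0.334 in mKO and 0.297% ± 0.0486 in WT. Ankrd2 exceeded Ankrd1 by 48.7 times in mKO replicate 2 and by 115 to 171 times in the other 5 libraries. The windows printed above belong to these genes, and no link between their letters and these levels was tested.

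Nrap, the nebulin-related anchoring protein, had groups that did not overlap. It stood at 1435, 1624 and 1627 TPM in mKO replicates 1, 2 and 3, and at 1692, 1812 and 1692 TPM in WT replicates 1, 2 and 3. The gap between the highest mKO and the lowest WT library was narrow beside the distance among the mKO libraries. Groups did not overlap for 1 of 8 members and for 16.0% of all genes tested, made up of 10.3% lower and 5.67% higher in mKO. The mean in mKO was 90.2% of that in WT, or −0.15 on the log2 scale with an SE of 0.06 (limma, unadjusted p = 0.0498 and adjusted p = 0.468). When TPM was rescaled over nuclear genes alone, Nrap was at −0.03, and the median over all genes was 0.09 in place of −0.01. The exons of Nrap overlap Habp2 and a predicted gene on the opposite strand by 268 and 108 bases in GENCODE M21. Habp2 was listed at no more than 0.158 TPM and the predicted gene at no more than 0.324 TPM.

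Csrp3, the muscle LIM protein, which is rich in slow and cardiac muscle, spread most within WT. It stood at 392, 460 and 481 TPM in mKO replicates 1, 2 and 3, and at 680, 456 and 396 TPM in WT replicates 1, 2 and 3. One library, WT replicate 1, was high, and the other 5 lay between 392 and 481 TPM. The coefficient of variation was 10.5% in mKO and 29.3% in WT. On the log2 scale the difference was −0.17 with an SE of 0.18 (limma, adjusted p = 0.812), with a 95% interval of 0.665 to 1.19 times WT, and it was 0.06 without WT replicate 1.

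Csrp3 was the main member of its family of LIM proteins in soleus, at 90.2% ± 0.827 of their summed TPM in mKO and 91.2% ± 1.57 in WT (SD, n = 3 each). Csrp1, the smooth muscle relative, took 8.87% ± 0.698 in mKO and 8.17% ± 1.50 in WT. Csrp2 was low, at 4.55 ± 0.606 TPM in mKO and 3.52 ± 0.497 TPM in WT, and not called (limma, log2 fold change 0.30, adjusted p = 0.408).

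Fhl1, a LIM-only protein whose gene is mutated in some human myopathies, was the most abundant member. It stood at 2374, 2477 and 2640 TPM in mKO replicates 1, 2 and 3, and at 2906, 2787 and 2330 TPM in WT replicates 1, 2 and 3. The groups overlapped through WT replicate 3, the lowest of the 6. The means were 2497 ± 134 TPM in mKO and 2674 ± 304 TPM in WT (SD, n = 3 each). Limma gave −0.09 on the log2 scale, SE 0.09 (adjusted p = 0.779), with a 95% interval of 0.813 to 1.08 times WT. Of the summed TPM of Fhl1, Fhl2 and Fhl3, Fhl1 took 92.1% ± 1.57 in mKO and 91.0% ± 0.865 in WT (SD, n = 3 each). Fhl3 took 7.07% ± 1.59 in mKO and 8.07% ± 0.916 in WT, and Fhl2, the main form of the heart, 1.08% at most in any library.

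Xirp1 and Xirp2, the Xin proteins, had estimates of different size and neither was called. Xirp1 stood at 208, 266 and 230 TPM in mKO replicates 1, 2 and 3, and at 286, 218 and 336 TPM in WT replicates 1, 2 and 3. WT replicate 2 fell among the mKO libraries. For Xirp1 limma gave −0.24 on the log2 scale, SE 0.15 (adjusted p = 0.651), and a 95% interval of 0.662 to 1.09 times WT. It was −0.10 without WT replicate 3 and −0.41 without WT replicate 2.

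Xirp2 stood at 496, 597 and 516 TPM in mKO replicates 1, 2 and 3, and at 574, 538 and 481 TPM in WT replicates 1, 2 and 3, with full overlap. Limma gave Xirp2 0.01 on the log2 scale, SE 0.09 (adjusted p = 0.976), with a 95% interval of 0.877 to 1.16 times WT. Xirp2 was the larger part of the pair in every library, at 69.6% ± 0.787 of their summed TPM in mKO and 65.6% ± 6.22 in WT (SD, n = 3 each). The share was closely held in mKO, from 69.1% to 70.5%, and ran from 58.9% to 71.2% in WT. Whole reads could not be recovered for either gene, so the reads behind these values were not used. A predicted gene, Gm13601, overlaps the exons of Xirp2 by 168 bases on the opposite strand and was listed at no more than 0.237 TPM.

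**Figure D2:**
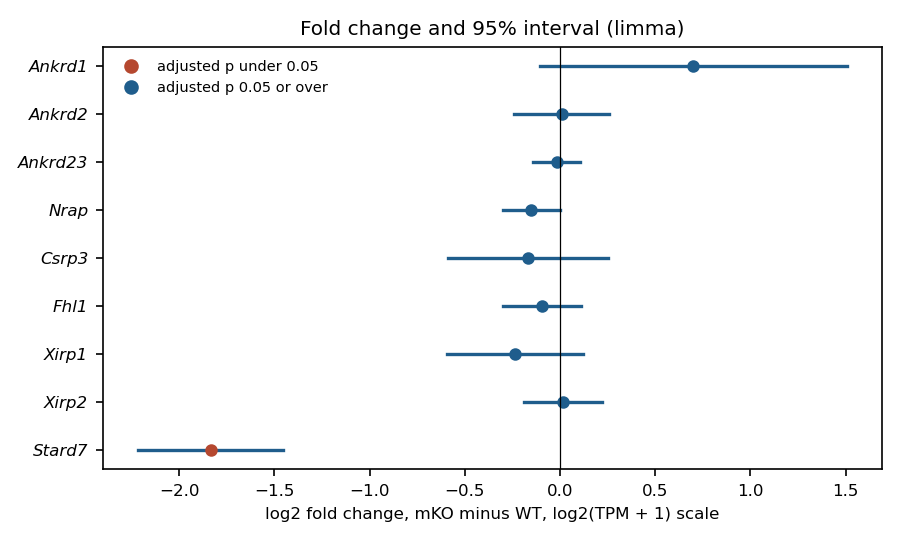
Log2 fold change (mKO minus WT, log2(TPM + 1) scale) of the 8 members and of Stard7, with 95% intervals from limma. The interval of Ankrd23 is the narrowest of the members and that of Ankrd1 the widest, and Stard7, at −1.83, is the sole gene drawn that passed the threshold.

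Across libraries the members did not share a single order. WT replicate 1 was highest for 3 members, Ankrd2, Csrp3 and Fhl1, and mKO replicate 2 for 2, Ankrd1 and Xirp2. WT replicate 3 was lowest for 4 members (Ankrd1, Ankrd2, Fhl1 and Xirp2) and yet highest for Ankrd23 and Xirp1. Replicate 1 of mKO was lowest for Csrp3, Xirp1 and Nrap. The range over the 6 libraries on the log2(TPM + 1) scale had a median of 0.39 over the members and of 0.30 over all genes tested, and it was widest for Ankrd1 (1.82) and Csrp3 (0.79).

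The genes nearest to Ankrd1 in pattern, by the root mean square difference of the centred log2(TPM + 1) values over the 6 libraries, were Myl4, Npr3 and Fam81a. The difference was 0.14 for Myl4, the light chain of atrial and embryonic myosin, 0.20 for Npr3, the clearance receptor of natriuretic peptides, and 0.22 for Fam81a. Myl4 stood at 5.61, 11.9 and 4.24 TPM in mKO replicates 1, 2 and 3, and at 5.88, 3.67 and 2.72 TPM in WT replicates 1, 2 and 3. Npr3 stood at 30.0, 56.7 and 27.1 TPM in mKO replicates 1, 2 and 3, and at 22.9, 24.1 and 20.8 TPM in WT replicates 1, 2 and 3. Both were highest in mKO replicate 2, which follows from their being picked for likeness to Ankrd1. Neither was called (adjusted p = 0.575 for Myl4 and 0.385 for Npr3, limma). With 6 libraries and 12301 genes some genes lie close to any pattern. The nearest to Csrp3 were Pdgfb (0.09), Prkd2 (0.10) and Usp28 (0.10), all highest in WT replicate 1.

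Markers of other cell types and further genes were also high in mKO replicate 2, the library with high Ankrd1. Of all genes tested 30.1% were highest in that library. Of the markers tested, 6 of 6 for macrophages, 5 of 6 for fibroblasts and 5 of 8 for tendon were highest there. The macrophage markers summed to 54.8, 92.7 and 72.3 TPM in mKO replicates 1, 2 and 3, and to 63.8, 73.4 and 62.5 TPM in WT replicates 1, 2 and 3. The fibroblast markers summed to 476, 743 and 612 TPM in mKO replicates 1, 2 and 3, and to 644, 689 and 583 TPM in WT replicates 1, 2 and 3. None of the fibroblast and macrophage markers was listed at 0 throughout. Markers of endothelium, smooth muscle and adipocytes gave 0 of 6, 0 of 5 and 0 of 5 highest in mKO replicate 2, those of satellite cells 2 of 4 and of Schwann cells 1 of 5. The slow fibre markers gave 7 of 12 and the fast fibre markers 0 of 14.

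Myh3, the embryonic myosin heavy chain, stood at 21.6, 36.5 and 21.4 TPM in mKO replicates 1, 2 and 3, and at 22.7, 15.7 and 8.02 TPM in WT replicates 1, 2 and 3. Col22a1, a collagen of the myotendinous junction, stood at 13.4, 24.4 and 10.7 TPM in mKO replicates 1, 2 and 3, and at 21.6, 23.3 and 22.1 TPM in WT replicates 1, 2 and 3. The 8 tendon markers listed summed to 315, 546 and 512 TPM in mKO replicates 1, 2 and 3, and to between 458 and 546 TPM in WT. The most abundant of them were Thbs4, a matrix protein of tendon (201 ± 72.4 TPM in mKO and 205 ± 17.5 TPM in WT), and Fmod, fibromodulin (146 ± 59.2 TPM in mKO and 179 ± 16.8 TPM in WT, SD, n = 3 each). All 8 were tested, 0 were called by limma-trend, 0 had an unadjusted p under 0.05, 0 were called by limma-voom, and none was listed at 0 throughout. Without mKO replicate 3 the test called 1, Fmod, lower. The 9 markers of regenerating and embryonic muscle summed to 46.8 to 77.8 TPM in mKO and 29.0 to 55.7 TPM in WT, with 0 of 5 tested called by limma-trend and by limma-voom. At an unadjusted p under 0.05 by limma-trend there were 2 (40%, beside 10.7% of all genes tested), Myh3 with an estimate above 0 and Myh8 with one below. Whether these markers, those of macrophages and fibroblasts included, have a part in the value of Ankrd1 was not tested. In bulk tissue fewer cells of a type and less RNA per cell cannot be told apart.

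**Figure D3:**
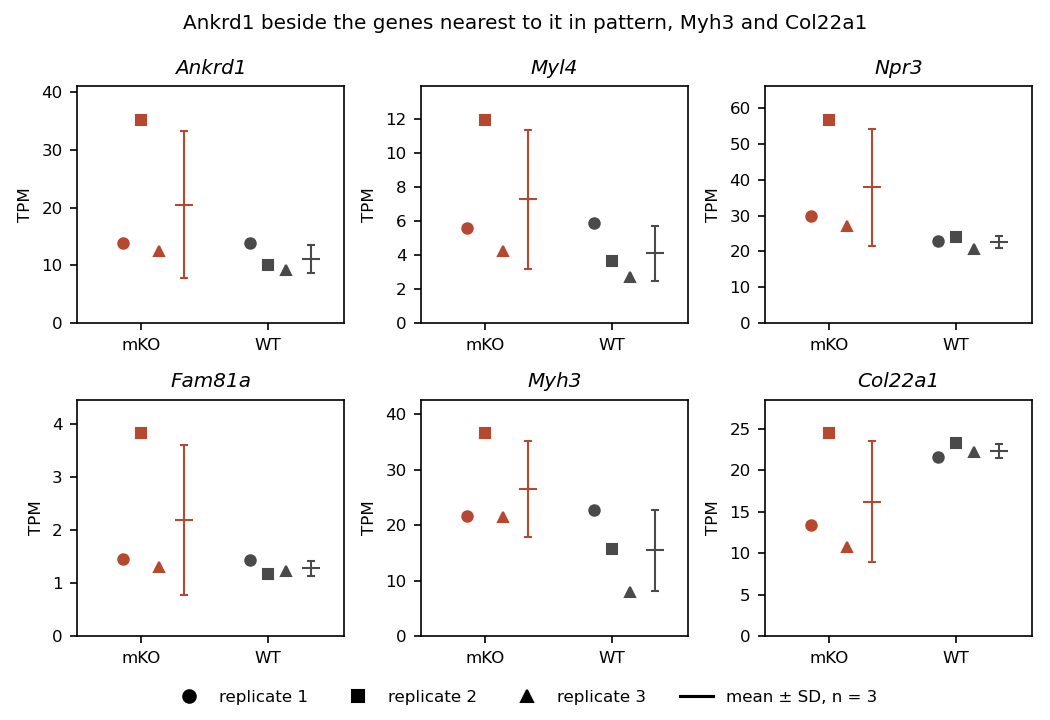
TPM per library of Ankrd1, of the 3 genes nearest to it in pattern (Myl4, Npr3 and Fam81a), and of Myh3 and Col22a1, with mKO left of WT, a symbol for each replicate number and the mean and SD. In all 6 panels mKO replicate 2 is the highest library, by the least for Col22a1 (24.4 TPM, against 23.3 TPM in WT replicate 2). The genes drawn were picked by pattern or with values known, and 30.1% of all genes tested are highest in that library.

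The genes around the members gave few calls in any setting. Of 20 other LIM proteins of striated muscle, 0 were called by limma-trend and 5 had an unadjusted p under 0.05 (25%, beside 10.7% of all genes tested), with 17 below 0 and a median log2 fold change of −0.08. Pdlim3, a LIM partner of alpha-actinin at the Z-disc, had the largest estimate. It averaged 83.4 ± 12.7 TPM in mKO and 127 ± 24.5 TPM in WT (limma, log2 fold change −0.60, adjusted p = 0.174), with no overlap of groups. The most abundant of the list, Ldb3 of the Z-disc and the LIM cofactor Lmcd1, were at −0.04 and −0.07 on the log2 scale (adjusted p = 0.852 and 0.857). Limma-voom also called 0 of the 18 it could test. With mitochondrially encoded genes left out 7 of the 20 were below 0 and the median was 0.04, where that of all genes was 0.09 in place of −0.01, so on both scales the list's median lay below that of all genes. Of the 5 genes at an unadjusted p under 0.05, 1 was higher and 4 lower in mKO. With mitochondrially encoded genes left out there were 4, with 3 higher and 1 lower. For all genes tested this share was taken with those genes kept only.

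Of 19 genes of titin and its partners, 0 were called and 7 had an unadjusted p under 0.05 (36.8%, beside 10.7% of all genes tested), with a median of −0.11, which was 0.01 with mitochondrially encoded genes left out. Of the 7, 1 was higher and 6 lower in mKO. With mitochondrially encoded genes left out there were 5, with 3 higher and 2 lower. Titin itself, Ttn, the spring to which the ankyrin repeat proteins bind, averaged 376 ± 15.3 TPM in mKO and 407 ± 19.5 TPM in WT (limma, log2 fold change −0.11, adjusted p = 0.526). The most abundant of the list, Tcap, the titin cap protein, and Actn2, the alpha-actinin of the Z-disc, were at −0.06 and −0.11 (adjusted p = 0.812 and 0.579). Limma-voom called 0 of 16. Without mKO replicate 3 the test called 3, Trim63 and Myom2 lower and Igfn1 higher. With all 6 libraries Myom2 had the largest estimate of the list. It averaged 70.7 ± 46.5 TPM in mKO and 164 ± 18.9 TPM in WT (limma, log2 fold change −1.39, adjusted p = 0.217), with no overlap of groups. Trim63 was at −0.61 and Igfn1 at 0.64 (limma, adjusted p = 0.217 and 0.260). Groups did not overlap for 8 of the 19, beside 16.0% of all genes tested.

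The partners of the Xin proteins and of Nrap gave similar counts. Of 15 genes of filamin C, intermediate filaments and chaperones, 0 were called and 4 had an unadjusted p under 0.05 (26.7%, beside 10.7% of all genes tested), with a median of −0.04 (0.07 with mitochondrially encoded genes left out). All 4 were lower in mKO. With mitochondrially encoded genes left out there were also 4, with 3 higher and 1 lower. Flnc, filamin C, averaged 531 ± 32.0 TPM in mKO and 643 ± 54.9 TPM in WT, with no overlap of groups (limma, log2 fold change −0.27, adjusted p = 0.217). Ky, which encodes a filamin C binding peptidase, averaged 10.6 ± 1.87 TPM in mKO and 19.3 ± 2.27 TPM in WT (limma, log2 fold change −0.81, adjusted p = 0.0511). The most abundant of the list were Cryab, a small heat shock protein, at 0.18, and Des, the muscle intermediate filament desmin, at −0.12 on the log2 scale (adjusted p = 0.575 and 0.486). Ky was the 1 gene of 14 that limma-voom called, and it also passed without mKO replicate 3, together with Tmod1. Of 16 genes of the costamere, the myotendinous junction and Nrap partners, 0 were called by limma-trend, 0 of 15 by limma-voom, and 5 had an unadjusted p under 0.05 by limma-trend (31.2%, likewise beside 10.7%), with a median of −0.11 (0.01 with mitochondrially encoded genes left out). All 5 were lower in mKO. With mitochondrially encoded genes left out there were also 5, with 3 higher and 2 lower. The most abundant were Lmod2, an actin nucleator, at −0.11, and Klhl41, a kelch protein that binds Nrap, at −0.18 on the log2 scale (limma, adjusted p = 0.789 and 0.429). Without mKO replicate 2 the test called 1, Col22a1, lower.

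Of 20 factors and targets of the YAP-TEAD and SRF-MRTF pathways, Ankrd1's known regulators among them, 0 were called by limma-trend and 0 of 19 by limma-voom. By limma-trend 5 had an unadjusted p under 0.05 (25%, beside 10.7% of all genes tested), 3 of them above 0 and 2 below. The median of the list was 0.02 (0.14 over nuclear genes alone). Over nuclear genes alone 5 had an unadjusted p under 0.05, with 5 above 0 and 0 below. Groups did not overlap for 6 of the 20, beside 16.0% of all genes tested. Acta1, skeletal actin and an SRF target, averaged 34379 ± 1053 TPM in mKO and 39246 ± 1803 TPM in WT (limma, log2 fold change −0.19, adjusted p = 0.356), and Vgll2, a TEAD cofactor, was at 0.02 (adjusted p = 0.944). Yap1, the co-activator of TEAD factors, averaged 27.7 ± 4.33 TPM in mKO and 20.4 ± 2.23 TPM in WT (limma, log2 fold change 0.42, adjusted p = 0.239). Tead4, a TEAD factor, averaged 7.84 ± 0.430 TPM in mKO and 9.83 ± 1.01 TPM in WT (limma, log2 fold change −0.29, adjusted p = 0.263). The groups of each gene did not overlap, with Yap1 higher and Tead4 lower in mKO. Egr1 and Fos had the largest estimates of the list, 0.72 and 0.54 (limma, adjusted p = 0.222 and 0.280), and their groups did not overlap either. Egr1 averaged 8.42 ± 0.630 TPM in mKO and 4.88 ± 1.86 TPM in WT. Fos averaged 12.3 ± 0.980 TPM in mKO and 8.34 ± 2.39 TPM in WT. The YAP targets Ccn1 and Ccn2 were at −0.03 and −0.22 on the log2 scale (limma, adjusted p = 0.980 and 0.827). Ccn2 stood at 53.3, 122 and 76.8 TPM in mKO replicates 1, 2 and 3, and at 82.9, 91.5 and 105 TPM in WT replicates 1, 2 and 3. It was highest in mKO replicate 2, as were 30.1% of all genes tested. Ccn1 was highest in WT replicate 3 (92.3 TPM, against 91.8 TPM in mKO replicate 2).

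Several fibre type markers passed the test. Of 14 fast fibre markers 6 were lower and 0 higher by limma-trend (background 0.423% lower), with a median of −0.62, and their summed TPM ran from 29856 to 38899 in mKO and from 47801 to 55884 in WT. The number called ran from 2 to 11 over the 16 other settings, with 2 with no filter and without WT replicate 2, and 11 without mKO replicate 3. Mybpc2, the fast myosin binding protein C, averaged 0.647 ± 0.531 TPM in mKO and 169 ± 16.4 TPM in WT (limma, −6.73, adjusted p = 8.37e-06). Pvalb, the calcium buffer parvalbumin, ran from 5.53 to 28.3 TPM in mKO and from 582 to 840 TPM in WT (−5.87, adjusted p = 0.00466, limma). Actn3, the alpha-actinin of fast fibres, averaged 14.4 ± 1.32 TPM in mKO and 264 ± 54.5 TPM in WT (−4.08, adjusted p = 1.42e-05, limma). The other called fast fibre genes were smaller in size, with Myoz1, a Z-disc protein, at −1.12, Tnnc2 at −0.49 and Mylk2 at −0.38. The fast myosin heavy chains Myh1 and Myh4 were not called, at −4.03 and −4.73 (adjusted p = 0.0515 and 0.0576, limma), with no overlap of groups. Myh4 averaged 8.98 ± 0.905 TPM in mKO and 406 ± 309 TPM in WT. Myh1 was called by limma-voom and without mKO replicate 3, and Myh4 without WT replicate 1. Folds are on the log2(TPM + 1) scale and understate the change of a gene as low as Mybpc2 in mKO. Of 12 slow fibre markers 1 was higher and 0 lower (background 0.0976% higher), with a median of 0.25. The 1 was Pln, the inhibitor of the slow calcium pump (14.2 ± 1.02 TPM in mKO and 4.30 ± 0.528 TPM in WT, SD, n = 3 each). The summed TPM of the slow fibre markers ran from 19502 to 27812 in mKO and from 18086 to 23466 in WT. Within mKO, replicate 3 had the highest fast sum and the lowest slow sum. Csrp3 and Ankrd2, known as slow muscle genes, were at −0.17 and 0.01. The part of the fibre markers in the members' values was not tested, nor was the difference between members and fibre markers.

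**Figure D4:**
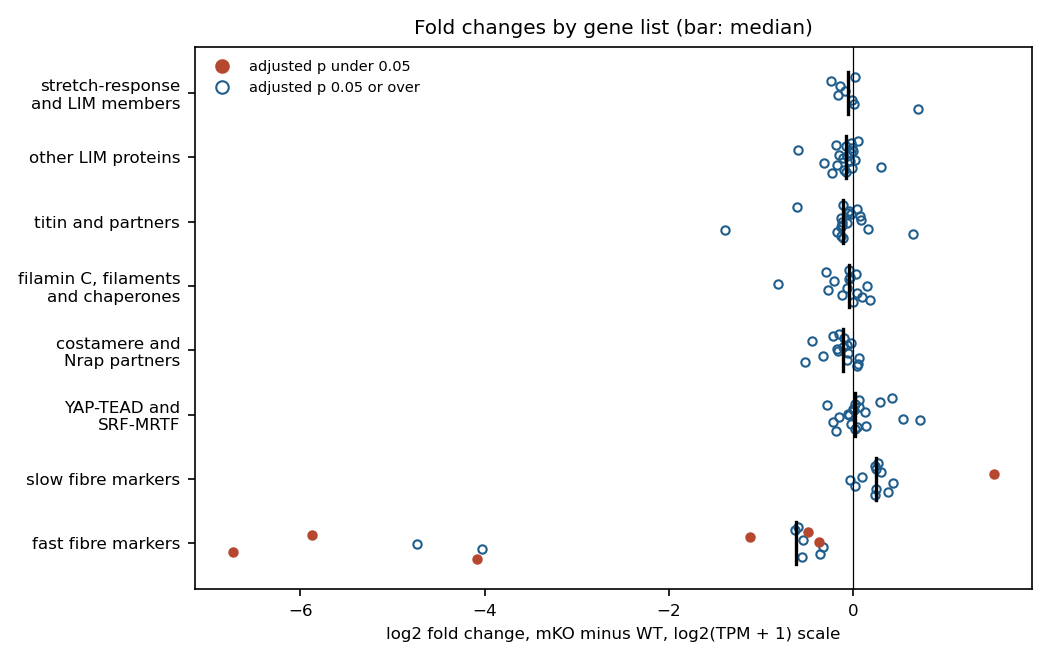
Log2 fold change (mKO minus WT, log2(TPM + 1) scale) of each tested gene of the members and 7 other lists, with a bar at each list's median. Filled points passed an adjusted p of 0.05. They lie only in the fast fibre list (6, all below 0) and the slow fibre list (1, Pln, above 0), and the members lie between −0.24 and 0.70.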

How the data were processed

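RNA of soleus was measured in 3 mKO and 3 WT libraries, made with a poly(A) selection and a directional kit per the labels' protocols. The authors deposited TPM per gene name, 1 table a library, on the build GRCm39, as the submitters' processing notes name it. How reads were aligned, counted and assigned by strand was not stated in those notes or the labels. Groups and replicate numbers came from the titles.

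Limma 3.58.1 in R 4.3.3 was run as limma-trend, a linear model of log2(TPM + 1) on genotype, over the 12301 genes that reached 1 TPM in 3 or more libraries. P-values were adjusted by Benjamini-Hochberg across all of them at 0.05, and intervals are 95% intervals of the moderated fit. Whole reads were recovered from TPM with GENCODE M21 exon lengths, within 0.05 reads in all 6 libraries for 93.1% of 22729 genes (chance would give 10% of single values). They gave the depth and limma-voom, scaled by the summed recovered reads of the genes it tested. GENCODE M21 belongs to a build older than GRCm39. Why its lengths recovered whole reads when the notes name GRCm39 was not tested. Libraries of the same group differed by more than counting noise (chi-square over its degrees of freedom, 19.6 to 37.6).

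The members and lists were chosen with earlier results of these data known. Values are printed for the members, Stard7, for up to 4 called genes or else the 2 most abundant of a list, and for the 3 genes nearest in pattern to the 2 members of widest range (predicted genes left out), though not every gene this takes is printed. Ky, Pdlim3, Flnc, Ttn, Yap1, Tead4, Egr1, Fos, Ccn1, Ccn2, Csrp1, Csrp2, Fhl2 and Fhl3 lie outside this rule. So do Myh1, Myh2, Myh3, Myh4, Myh7, Myh8, Col22a1 and genes called in other settings. All of these were picked with their values known. Aldoa is listed under numbered entries and was left out of its list. Markers of fibroblasts, macrophages, endothelium, smooth muscle, satellite cells, Schwann cells and adipocytes held 0 called genes in any setting run, limma-voom included. By limma-trend 0 of the 6, 6, 6, 5, 4, 5 and 5 tested were called, and 1, 0, 1, 1, 0, 0 and 0 had an unadjusted p under 0.05, beside 10.7% of all genes tested.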

Additional observations from a re-analysis of the deposited data

How the results depend on the processing

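None of the 8 members was called in any of the 16 other settings (6 members with limma-voom). The number of genes called over all genes moved more, from 64 to 6 with no filter on low values, 41 with mitochondrially encoded genes left out, 41 with median-of-ratios scaling, 39 with upper-quartile scaling and 33 with no trend and robust moderation, and the cause was not tested. With 1 library fewer the count ran from 4 (without WT replicate 2) to 94 (without mKO replicate 3). Limma-voom on recovered reads, chosen after seeing the data, called 92, of which 35 were higher. With mitochondrially encoded genes left out 21 were higher and 20 lower, in place of 12 and 52. The replicate numbers share only a number: deviations of same-numbered libraries correlated at 0.095, 0.047 and 0.131 across genes, and a replicate block gave 21 calls, none of them a member. Stard7 lost its call with no filter (−1.83, adjusted p = 0.0858) and without WT replicate 2 (−1.81, adjusted p = 0.0703), with estimates between −2.05 and −1.72 when 1 library was left out. The median of the members was 0.063 with mitochondrially encoded genes left out, where that of all genes was 0.09, and lay between −0.10 and 0.017 over libraries left out. The highest of these came without WT replicate 1, where the median of all genes was −0.01. Estimates near 0 changed sign. Ankrd23 was at 0.10 with mitochondrially encoded genes left out, 0.000331 and 0.00287 with the scalings by median of ratios and upper quartile, 0.035 by limma-voom, and −0.048 to 0.019 over libraries left out. Fhl1 was at 0.024 with mitochondrially encoded genes left out. Over libraries left out Ankrd2 ran from −0.11 to 0.11, Xirp2 from −0.065 to 0.073 and Csrp3 from −0.33 to 0.057. Ankrd1, Xirp1 and Nrap kept their sign in each setting that tested them. The mKO minus WT difference in family share, in percentage points, was −0.663 for Xirp1 without WT replicate 3, in place of −4.02, and 0.0636 for Ankrd1 without mKO replicate 2, in place of 0.256. Those of Ankrd2, Ankrd23, Csrp1 and Fhl2 were on either side of 0 over libraries left out (−2.27 to 2.17, −2.46 to 2.03, −0.160 to 1.15 and −0.0954 to 0.0228).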
